A study of Mus musculus with 4 samples.

Results

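The cytosolic ribosomal protein genes were followed in Hepa1c1c7, a mouse hepatoma cell line, after exposure to diethyl maleate (DEM). DEM depletes glutathione by binding to its thiol group, and the series title describes it as an activator of NRF2, the transcription factor of antioxidant and detoxification genes. The treated group was 2 RNA samples of cells given 100 µM DEM for 6 hours, and the control group was 2 RNA samples of cells given the solvent dimethyl sulfoxide (DMSO) for the same time. All samples came from this single line, and no genetic change was named in the labels. The design text speaks of independent RNA samples but names no separate cultures, so the spread behind each p-value may be technical only. Members were chosen by symbol: Rpl or Rps followed by a digit, Rplp0, Rplp1, Rplp2 and Rpsa, without the Rps6k kinases and the pseudogenes. The rule found 84 genes, read by 121 of the 41174 probes. Of these genes, 46 encode large subunit proteins, 30 encode small subunit proteins, and 8 are paralogs or Rps19bp1, whose symbol meets the rule although its name describes a protein that binds RPS19. A further 11 mouse symbols that meet the rule were not analysed here, because no probe was named for them.

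The cytosolic ribosome is built from a small subunit, which reads the messenger RNA, and a large subunit, which joins amino acids and holds the exit tunnel of the growing chain. Its proteins are made in matched amounts, and their messenger RNAs carry a short pyrimidine tract at the 5′ end, the TOP motif, through which growth signals control their translation. Liver and hepatoma cells, which make and secrete much protein, hold these messenger RNAs at high levels.

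Probe intensity was used on a log2 scale relative to the 75th percentile of the same array. Between 20744 and 21659 probes were well above background per array, and no spot of a ribosomal protein gene was saturated. Log2 values correlated across the genes tested at 0.994 within each group and at 0.989 to 0.991 between groups. Hepatocyte markers were only partly present, as Alb, Afp and Apoa2 were well above background on all 4 arrays and Ttr, Apoa1 and Hnf4a on none. The summed linear signal of the tested hepatocyte markers was 797 to 840 times the 75th percentile in DMSO and 830 to 837 times in DEM. Krt8 and Krt18, at differences of −0.03 and −0.04, had the highest signals in that sum. The other 6 of the 8 tested hepatocyte markers had positive differences, among them Foxa2 at 0.45 ± 0.08 (limma adjusted p = 0.0936), and 0 of the 8 were called. The largest difference was that of Apob (3.45 ± 0.80, limma adjusted p = 0.138). Apob read −5.21 and −7.21 with DMSO and −3.38 and −2.15 with DEM. It was not well above background on all 4 arrays, and at these low levels it adds little to the sum. The sum of the 6 tested fibroblast and stellate markers was 139 to 148 in DMSO and 119 to 135 in DEM. Of these 6, 5 had negative differences, and the largest difference was that of Pdgfrb (0.27 ± 0.11, limma adjusted p = 0.289). The sum of the 5 tested cholangiocyte markers was 168 to 179 in DMSO and 139 to 159 in DEM. All 5 had negative differences, the largest that of Sox9 (−0.69 ± 0.11, limma adjusted p = 0.0782). Sums of the 3 tested macrophage and leukocyte markers were 5.13 to 5.83 and 4.71 to 6.04, with Adgre1 and Itgam well above background on no array. Cd14 had the largest difference of these 3 (−0.45 ± 0.12, limma adjusted p = 0.176), and 1 of the 3 was positive. Of 6 endothelial markers, only Lyve1 was above background, at 0.111 to 0.118 and 0.0995 to 0.101. The part of these differences in the ribosomal protein values was not tested. All samples came from 1 cell line, so these sums describe marker RNA and not shares of separate cell types. Fewer cells with a marker and less of its RNA per cell cannot be told apart in such samples.

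The ribosomal protein genes were measured at nearly the same level with DEM as with DMSO. Of the 84 genes, 81 exceeded background clearly on 2 or more arrays and were tested, and Rpl3l, Rpl39l and Rps4l were above background on none. With limma and Benjamini-Hochberg adjustment over 15537 genes, 0 of the 81 passed an adjusted p of 0.05, against 1.22% of all genes tested (0.714% higher and 0.508% lower with DEM). Without adjustment, limma gave 0 of 81 a p under 0.05, against 19.2% of all genes. The lowest limma p of any member was 0.165, for Rpl3, with an adjusted p of 0.450. The log2 differences ran from −0.16 to 0.09, with a median of −0.02 beside −0.01 over all genes tested. The sign of this small median depended on the scaling: dividing by each array's median instead moved it to 0.12 and the median of all genes to 0.14.

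Under the percentile scaling used here, the size of a change that these arrays could have missed was limited. The limma 95% interval of each difference lay within 1.5-fold in both directions for 81 of 81 members, against 10179 of the 15537 genes. The interval bounds ran from −0.52 to 0.39 on the log2 scale, with a median half-width of 0.24. A difference smaller than these intervals was not detectable with 2 arrays per group. The bound depends on the scaling. The median SE over the members was 0.09 here, 0.15 under median scaling and 0.20 under spike-in scaling. A larger SE widens the intervals, and those under the other scalings were not counted against 1.5-fold. The bound of 1.5-fold is therefore shown for the percentile scaling only and may not hold under median or spike-in scaling.

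**Figure D1:**
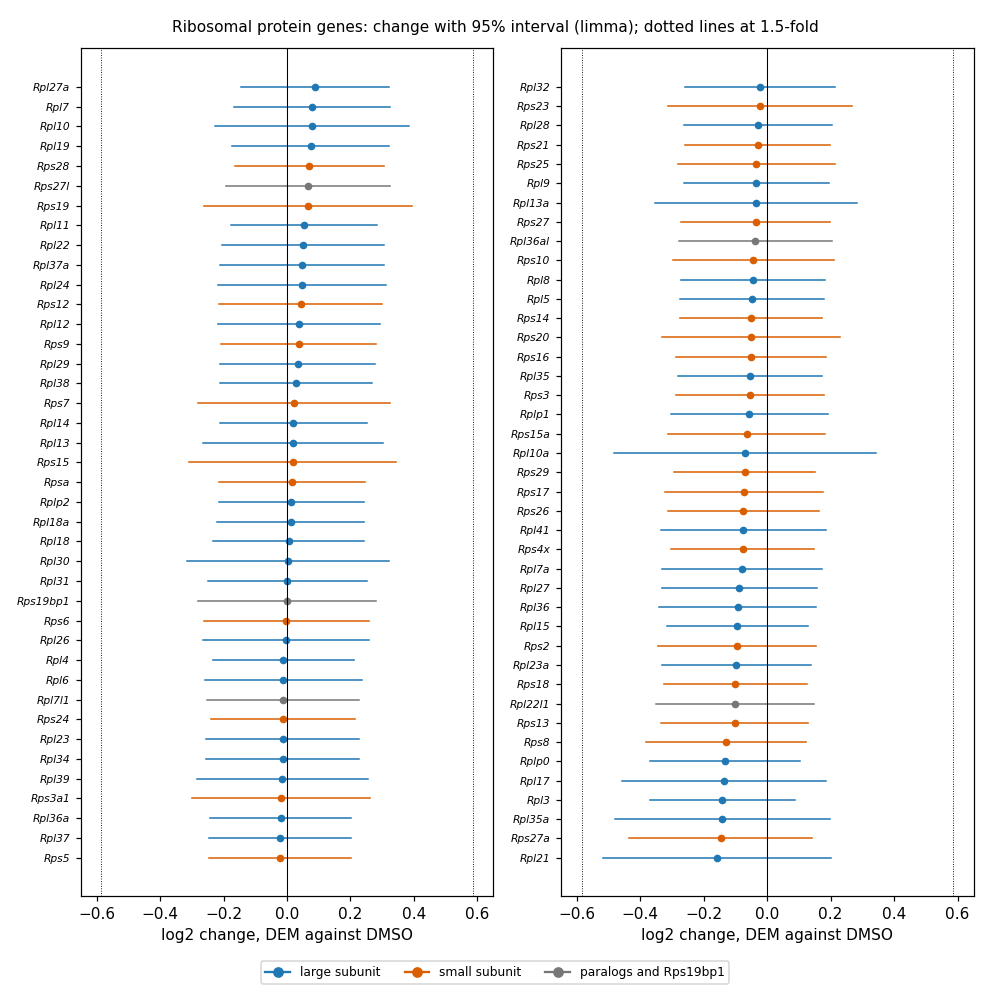
Log2 difference between DEM and DMSO (x axis) for each of the 81 tested ribosomal protein genes (y axis), with limma 95% intervals as lines, dotted lines at 1.5-fold and colours for large subunit, small subunit and the paralogs with Rps19bp1. Every interval crosses 0 and stays inside the dotted lines, and the points run from Rpl27a at 0.09 to Rpl21 at −0.16.

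The acidic stalk of the large subunit recruits the translation factors. Rplp0, the base of the stalk, had log2 signals of 8.27 and 8.25 on the DMSO arrays and 8.08 and 8.17 on the DEM arrays. Both DEM values lay below both DMSO values, and the difference was −0.13 ± 0.09 (SE, n = 2 and 2, limma adjusted p = 0.488). This separation was seen on the brightest probe only. A second Rplp0 probe of similar signal read 8.17 and 8.04 with DMSO and 8.11 and 8.09 with DEM, which overlap (difference −0.004). Rplp1 had 8.08 and 8.0 with DMSO and 7.94 and 8.03 with DEM, which overlap (−0.06 ± 0.09). Rplp2 had 8.31 and 8.31 with DMSO and 8.30 and 8.36 with DEM, a difference of 0.01 ± 0.08. The stalk proteins had no shared direction, and the interval of Rplp0 (−0.37 to 0.10) includes 0.

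Rpl5 and Rpl11 form with 5S ribosomal RNA a particle that, when not built into ribosomes, binds and inhibits the p53 ubiquitin ligase MDM2. Rpl5 had 8.43 and 8.38 with DMSO and 8.34 and 8.37 with DEM. Rpl11 had 8.09 and 8.07 with DMSO and 8.10 and 8.17 with DEM. The DEM values lay just below those of DMSO for Rpl5 (−0.05 ± 0.08) and just above for Rpl11 (0.05 ± 0.09), both within the error of the fit. The 10 proteins of the peptide exit tunnel and its rim, which the growing chain passes, had a median difference of −0.01, with 4 positive and 6 negative values and 0 called.

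The members at the ends of the range were mostly large subunit genes, which are also 46 of the 81 tested members. Rpl27a was the highest, at 4.86 and 4.82 with DMSO and 4.89 and 4.97 with DEM, so that its groups did not overlap. Its difference was 0.09 ± 0.09 (limma adjusted p = 0.652). Rpl19 was similar, with 7.97 and 7.96 against 7.98 and 8.10 (0.08 ± 0.09). Rpl7, with 7.76 and 7.69 against 7.75 and 7.85, and Rpl10, with 6.72 and 6.65 against 6.65 and 6.88, had overlapping groups and differences of 0.08. For both, the highest value came from DEM replicate 2. The other tested probes of Rpl7 had the opposite sign, at −0.046 and −0.047, while the other Rpl19 probe gave 0.03.

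At the other end, Rpl3, a protein of the peptidyl transferase region, had 6.88 and 6.82 with DMSO and 6.70 and 6.72 with DEM. Its groups were apart by more than the replicates of each differed, and its difference was −0.14 ± 0.08 (95% interval −0.37 to 0.09). Rpl17 had 7.15 and 7.12 with DMSO and 6.87 and 7.12 with DEM, so that its difference of −0.14 ± 0.12 came from DEM replicate 1. This was seen on the brightest probe only. A second Rpl17 probe of similar signal read 6.80 and 6.80 with DMSO and 6.76 and 6.84 with DEM (difference −0.003). Rpl35a had 5.82 and 5.56 with DMSO and 5.49 and 5.61 with DEM (−0.14 ± 0.13), with overlapping groups. Rpl21 was the lowest, with 1.14 and 0.98 with DMSO and 1.03 and 0.77 with DEM. Its difference of −0.16 ± 0.13 is 1.12-fold (limma adjusted p = 0.593), and its groups overlapped.

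Among small subunit genes, Rps27a encodes a protein joined to ubiquitin that is cut free after translation. It had 5.91 and 5.73 with DMSO and 5.62 and 5.73 with DEM, and its difference of −0.15 ± 0.11 is 1.11-fold (limma adjusted p = 0.538). The groups almost touched, as DMSO replicate 2 and DEM replicate 2 were the same to 2 decimals. Fau, which encodes a ribosomal protein made as a fusion with a ubiquitin-like protein, lies outside the symbol rule and was chosen after its values were seen. Fau had 9.21 and 9.18 with DMSO against 9.05 and 9.09 with DEM. Both DEM values lay below both DMSO values for Rps27a and Fau, and neither gene passed the limma test.

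Rps6, whose protein is phosphorylated when growth signalling is active, had 5.79 and 5.75 with DMSO and 5.70 and 5.84 with DEM. Its difference rounded to 0.00 ± 0.10, with the DEM values on either side of the DMSO values. Rpsa, which carries the older name laminin receptor, had 6.14 and 6.21 against 6.18 and 6.20 (0.02 ± 0.09). Rps28 was the small subunit gene with the highest difference, at 7.79 and 7.73 with DMSO and 7.80 and 7.86 with DEM (0.07 ± 0.09). The 7 proteins that line the messenger RNA entry and decoding region had a median difference of −0.02. The 12 tested genes whose human orthologues are mutated in Diamond-Blackfan anaemia, a failure of red cell formation, had a median of −0.05, with 3 positive and 9 negative values. No gene of these role groups was called.

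Several members have a paralog, and values are compared here between groups of arrays and not between the probes of a pair. Rps27l, a p53-responsive paralog of Rps27, had 6.33 and 6.31 with DMSO and 6.32 and 6.46 with DEM (0.07 ± 0.10), while Rps27 had 8.07 and 8.04 against 7.98 and 8.06 (−0.04 ± 0.09). Rpl22l1 had 5.25 and 5.20 with DMSO and 5.06 and 5.18 with DEM (−0.10 ± 0.09), while Rpl22, whose product represses Rpl22l1, had 7.11 and 7.13 against 7.10 and 7.24 (0.05 ± 0.09). Within both pairs the differences had opposite signs, each no larger than about its standard error. The sign of Rpl22 was that of its brightest probe, and a dimmer Rpl22 probe gave −0.05. Rpl36al (−0.04 ± 0.09), Rpl36a (−0.02 ± 0.08), Rpl7l1 (−0.01 ± 0.09) and Rpl39 (−0.01 ± 0.10) were nearer to 0. Rps4x, the partner of the undetected Rps4l, had 7.53 and 7.49 against 7.42 and 7.45 (−0.08 ± 0.08). Rps19bp1 had 5.30 and 5.12 with DMSO and 5.19 and 5.23 with DEM, a difference of 0.00 ± 0.10.

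Large and small subunit genes differed little from each other. The median log2 difference was −0.01 over 46 large subunit genes (18 positive, 28 negative) and −0.04 over 30 small subunit genes (7 positive, 23 negative). The large subunit median was thus 0.03 above that of the small subunit, against an SD of 0.064 among large and 0.054 among small subunit genes. On each array, scaling cancels from the median of large minus that of small subunit genes, each gene set relative to its own mean over the 4 arrays. This quantity was −0.0044 and −0.0099 on the DMSO arrays and 0.018 and 0.021 on the DEM arrays. The groups did not overlap, but the genes are not replicates, and no test was made of it. The difference of 0.03 between the medians became 0.00055 under normexp background correction, and both medians were positive under median scaling.

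The groups were also set side by side by overlap. The DEM and DMSO values did not overlap for 27 of 81 members (33.3%), against 50.6% of all genes. They were higher with DEM in 4 (4.94%, against 24.9% of all genes), namely Rpl27a, Rpl19, Rps28 and Rpl11. They were lower in 23 (28.4%, against 25.6% of all genes), of which 12 encode large and 10 small subunit proteins, and the other was Rpl22l1. With 2 arrays per group this is a description of these arrays, and the counts move with the scaling.

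The arrays of a group differed from each other, at the median, by more than the groups did. The median log2 level over the members was 7.48 and 7.49 on the DMSO arrays and 7.41 and 7.48 on the DEM arrays. DEM replicate 2 was above DEM replicate 1 for 75 of 81 members, with a median difference of 0.09. DMSO replicate 1 was above DMSO replicate 2 for 63 of 81, with a median difference of 0.04. The low DEM array set the sign of the overall median: without DEM replicate 1 it was 0.02, and without DEM replicate 2 it was −0.07.

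**Figure D2:**
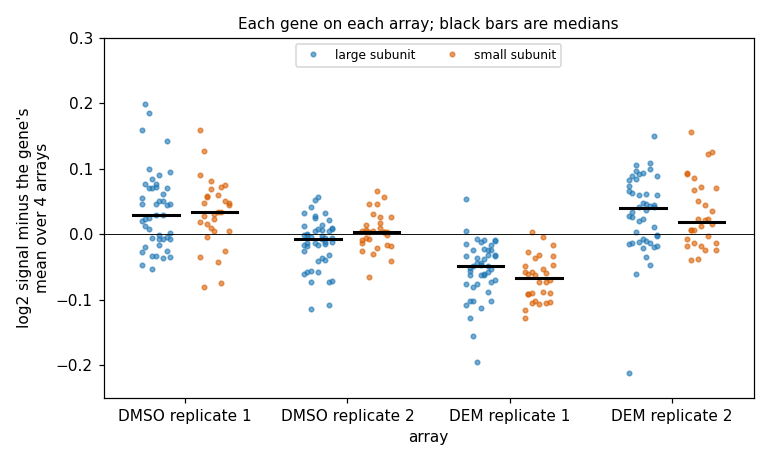
Log2 signal of each large (blue) and small (orange) subunit gene minus its own mean over the 4 arrays (y axis), for each array (x axis), with black bars at the medians. DEM replicate 1 lies lowest, with medians of −0.05 and −0.07, and DEM replicate 2 lies at 0.04 and 0.02, near DMSO replicate 1 at 0.03 for both.

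Over all 81 members, the spread of the differences was close to the spread that the replicates alone would give. For the 61 brighter members it was further above that spread. The SD of the 81 log2 differences was 0.060. The SD of the differences between the 2 arrays of a group was 0.073 for DMSO and 0.080 for DEM, which on the scale of a mean of 2 against 2 arrays corresponds to 0.054. For comparison, 286 other genes with a signal above the lower quartile of the members had an SD of 0.175, where their replicates correspond to 0.065. These genes ran from −1.14 to 1.12, and 76.6% lay within the range of the members. The 61 members above the same signal had an SD of 0.056, where their replicates correspond to 0.041. The 78 tested mitochondrial ribosomal protein genes, which build the separate ribosome of that organelle, had a median of 0.00, an SD of 0.123 where their replicates correspond to 0.057, and 0 calls. They ran from −0.30 to 0.56. Over all genes the SD was 0.388.

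**Figure D3:**
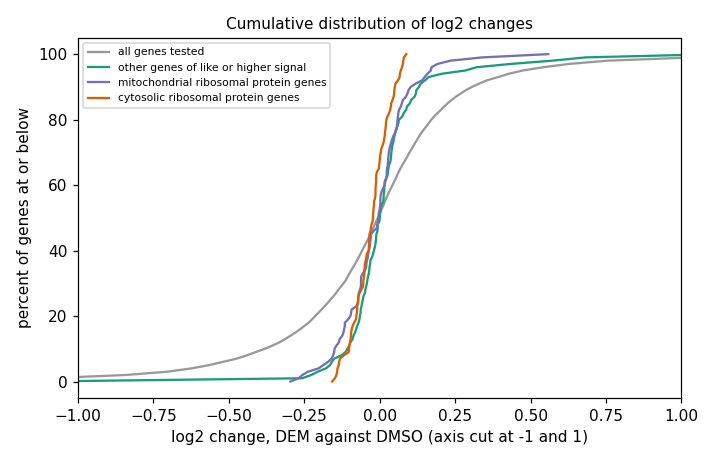
Percent of genes (y axis) with a log2 difference at or below the value on the x axis, which is cut at −1 and 1, for cytosolic ribosomal protein genes, mitochondrial ribosomal protein genes, 286 other genes of like or higher signal and all genes tested. The curve of the cytosolic genes is the steepest of these 4 and ends at −0.16 and 0.09.

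Several probes could be compared in some members. Of the members, 53 had 1 probe, 26 had 2, 4 had 3 and Rpl29 had 4. In 30 members with several tested probes, the differences of the probes ranged over more than 0.2 in 3 and over more than 0.5 in none, with a median range of 0.098. Rpl29 varied most (range 0.42): its brightest probe gave 0.03 and its dimmest −0.38. That dimmest probe read −0.20 and −1.16 with DMSO and −1.23 and −0.89 with DEM, so that its DMSO replicates lay further apart than the group means. The dim probe of Rps15a gave 0.17 beside −0.06 for the brightest, and the other probe of Rpl21 gave 0.07. Fitted as separate features with limma, 0 of 117 tested probes were called and 0 had an unadjusted p under 0.05. Processed copies of ribosomal protein genes are common in mammalian genomes, and signal from them on these probes was not tested.

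**Figure D4:**
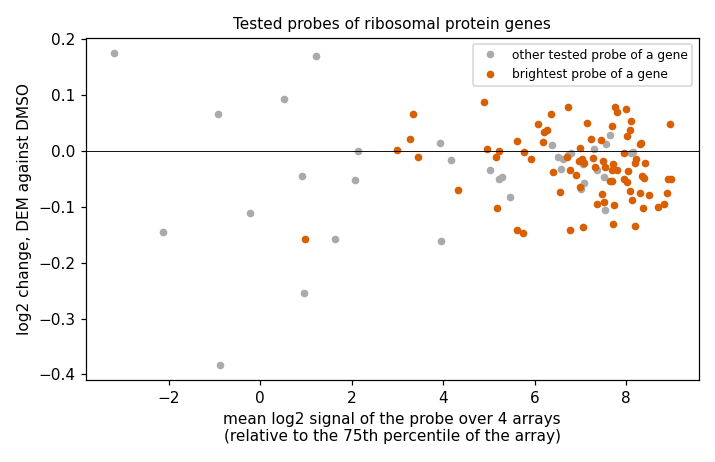
Log2 difference (y axis) against mean log2 signal over the 4 arrays (x axis) for each of the 117 tested probes of ribosomal protein genes, with the brightest probe of a gene in orange and the others in grey. The lowest point, at −0.38, and the highest pair, at 0.17, are dim probes that were not used for the value of their gene.

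Scaling moved all of these genes together. Under median scaling 79 of 81 differences were positive, and under scaling on 231 spike-in spots 80 of 81 were negative, with a median of −0.10 beside −0.09 over all genes. Relative to the median of all genes, the members lay at −0.02 under percentile, median and spike-in scaling. Each of these subtracts 1 value per array from every gene, so this relative value cannot differ between them. It was −0.05 under cyclic loess, which is not bound in this way. With an array left out, this relative value was 0.02 without DEM replicate 1, −0.06 without DEM replicate 2, and −0.02 and −0.03 without DMSO replicates 1 and 2. It was negative under every alternative run except the one without DEM replicate 1. Its size stayed below the SD of 0.060 among the members, and no member was called under any alternative listed.

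**Figure D5:**
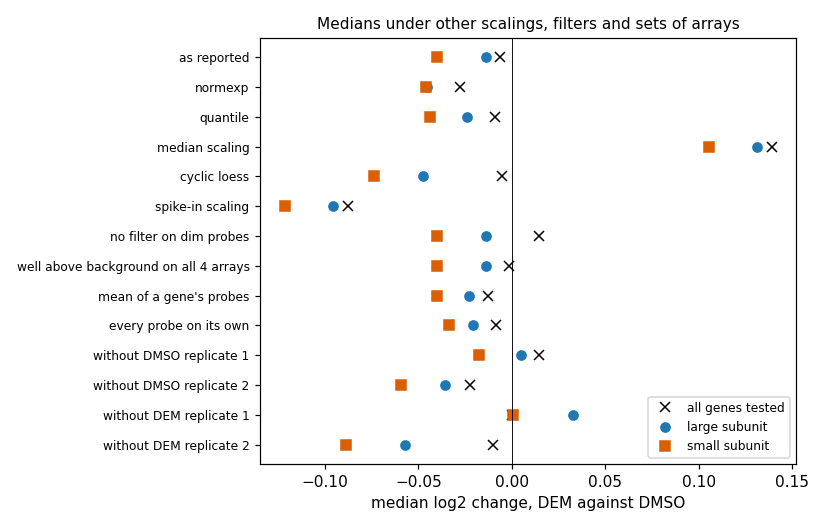
Median log2 difference (x axis) of large subunit genes (circles), small subunit genes (squares) and all genes tested (crosses) under each scaling, filter, choice of probe and set of arrays (y axis). The 3 markers move together to the right under median scaling and to the left under spike-in scaling, and the large subunit stays at or to the right of the small subunit.

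The annotated start sites were searched for the pyrimidine tract for which these messenger RNAs are known. RefSeq promoters (GRCm38.p6) were at hand for 64 of the 84 members, of which 57 encode large or small subunit proteins. Where a gene had several promoters, as 10 members did, the first listed was used. Of these 57, 25 (43.9%) had a run of at least 8 C or T that reached within 10 bases of the annotated start. The run was read on the strand of the transcript and could extend beyond those bases. Such a run was found in 13.5% of 27025 promoters and 13% of 8815 tested genes. The share was 44.1% in the large and 43.5% in the small subunit. A strict TOP start, a C at the annotated start followed by at least 4 more pyrimidines, was found in 12 (21.1%), against 2.49% of all promoters. The sequences below run from 20 bases before the annotated start to 20 bases from it onward, with the pyrimidine run in capitals. The first 4 have the strict TOP start, Rpl27a has a long run and the highest difference, and Rpl10 and Rplp0 have no run of 8.
Rps27, chr3:90213629-90213668, minus strand: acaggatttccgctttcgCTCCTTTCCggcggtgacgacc
Rps6, chr4:86857348-86857387, minus strand: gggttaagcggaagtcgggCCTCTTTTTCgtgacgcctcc
Rps18, chr17:33955646-33955685, minus strand: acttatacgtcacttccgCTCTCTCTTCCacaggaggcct
Rpl15, chr14:18270967-18271006, minus strand: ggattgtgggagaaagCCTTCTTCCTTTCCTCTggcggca
Rpl27a, chr7:109519175-109519214, plus strand: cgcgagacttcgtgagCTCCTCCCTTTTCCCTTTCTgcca
Rpl10, chrX:74270796-74270835, plus strand: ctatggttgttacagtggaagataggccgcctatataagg
Rplp0, chr5:115559447-115559486, plus strand: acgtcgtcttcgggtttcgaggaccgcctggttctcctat
Annotated starts can lie some bases from the site that cells use, and a tract outside the window is not seen here.

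Genes with and without the tract had overlapping differences. The 25 genes with a run of 8 had a median of −0.014 (−0.10 to 0.09), and the 32 without had −0.019 (−0.14 to 0.08). Rpl27a, at the top of the range, and Rps18 and Rpl15, with differences of −0.10 and −0.09, all carry a run. The 12 genes with a strict TOP start had a median of −0.03 and the other 45 had −0.01. Over the 57 genes, which share the 4 arrays, Spearman's rho between the longest run and the difference was −0.07.

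Other short motifs were counted in the 250 bases before the start on both strands. CTTCCG, whose complement CGGAAG is a core bound by ETS factors, was present in 32 of 57 (56.1%), against 13.8% of all promoters and 26.9% of tested genes. It was in 73.9% of small and 44.1% of large subunit genes. Members with and without it had medians of −0.016 and −0.014. TGACNNNGC, the core of the antioxidant response element to which NRF2 binds, was present in 6 of 57 (10.5%), against 10.1% of all promoters and 12.1% of tested genes. These 6 had a median difference of −0.03, beside −0.01 for the other 51. No CTTCCG match overlapped a pyrimidine run in a member, against 0.0888% of all promoters and 0.102% of tested genes. At such low shares this says nothing particular about the members.

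Genes that build the ribosome were also measured. Of 99 listed ribosome biogenesis genes, which process ribosomal RNA and assemble subunits, 96 were tested, and 0 were called higher and 0 lower. Their median log2 difference was −0.05, with 27 positive and 69 negative values. Median scaling shifts all genes alike, and there the list median was 0.09 beside 0.14 over all genes. The sign thus turns under that scaling, but the place below all genes cannot. The same holds for the next pair of lists. The groups did not overlap for 41 of the 96 genes lower and 8 of the 96 higher with DEM, against 25.6% and 24.9% of all genes. The largest difference was that of Ddx52, an RNA helicase (−0.51 ± 0.11, limma adjusted p = 0.125). Of 20 genes of RNA polymerase I and its factors, which transcribe ribosomal RNA, 0 were called, and the median was −0.07. Taf1b, a subunit of its promoter factor, had the largest difference (−0.72 ± 0.11, limma adjusted p = 0.0713). Other genes with TOP messenger RNAs, among them elongation factors, had a median of −0.04 over 23 tested and 0 calls. Snhg8, a host of small nucleolar RNA, went from 1.84 and 1.83 with DMSO to 1.52 and 1.32 with DEM (−0.41 ± 0.11, limma adjusted p = 0.160).

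In the translation initiation and control list, 1 of 44 tested genes passed the limma test, upward, and 0 downward. This was Sesn2, a stress-induced inhibitor of the growth kinase complex mTORC1, which promotes translation of TOP messenger RNAs. It had 1.11 and 1.13 with DMSO and 1.90 and 1.94 with DEM, a 1.74-fold rise (0.80 ± 0.08, limma adjusted p = 0.0456). That call was lost under 8 of 16 alternatives, with limma adjusted p from 0.0539 to 0.255. In 4 of these 8 an array was left out, so that a group held a single array, assumed to vary like the other group. In the list of 20 genes of ribosome quality control and nucleolar stress, 0 were called and the median was 0.01. Mdm2, the ubiquitin ligase bound by free RPL5 and RPL11, had 2.84 and 2.87 with DMSO and 3.28 and 3.58 with DEM (0.57 ± 0.13, limma adjusted p = 0.135).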

How the data were processed

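Agilent 1-colour arrays of messenger RNA were compared, 2 of DEM and 2 of DMSO, grouped by sample title. The deposited values are processed signals, a linear intensity that, per the file headers, Feature Extraction 10.7.3.1 had already background-subtracted, with flags for outliers, saturation and signal well above background. The array was annotated on mm9, per the file headers. The extract protocol speaks of liver tissue, while the other labels name the cell line.

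From these intensities, log2 values were taken minus each array's 75th percentile over 43379 non-control spots. Outlier spots were dropped and spots of a probe averaged. Probes had to exceed background clearly on 2 or more arrays to be tested, and the brightest probe stood for a gene. Names came from NCBI RefSeq (GRCm38.p6) through accessions, giving 26690 probes 1 symbol. DEM was compared with DMSO with limma 3.58.1 (lmFit and eBayes, R 4.3.3), adjusted by Benjamini-Hochberg over 15537 genes. Fit and calls were tested on simulated data.

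The members and lists were chosen with earlier results of these data known. Genes named are the 6 highest and 6 lowest members, Rplp0, Rplp1, Rplp2, Rpsa, Rpl5, Rpl11, Rps6, Rps27a, paralogs with partners, members with discordant probes, and called or most changed genes of other lists; exceptions are marked or illustrate a count or sequence. Alternatives were background correction (normexp with the median spot signal, offset 50), quantile, median, cyclic loess and spike-in scaling, filters, probe choice, an intensity trend in eBayes, the replicate block and leaving out each array.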

Additional observations from a re-analysis of the deposited data

How the results depend on the processing

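No ribosomal protein gene was called under any of 17 alternatives; with an intensity trend in eBayes, Rpl3 and Rplp0 reached unadjusted limma p of 0.048 and 0.049, with adjusted p of 0.238 and 0.239. The members' median moved to 0.12 under median scaling and to −0.10 under spike-in scaling, and ran from −0.067 to 0.017 with an array left out. Large minus small subunit became 0.00055 under normexp, 0.020 under quantile, 0.017 with the mean of probes and 0.013 with every probe, and ran from 0.022 to 0.032 with an array left out. The SD became 0.085 under normexp and ran from 0.056 to 0.082 with an array left out. Calls over all genes (111 higher, 79 lower) became 437 and 370 under normexp, 64 and 37 under quantile, 404 and 163 under median scaling, 66 and 36 under cyclic loess, 378 and 951 under spike-in scaling, 230 and 196 with a filter on all 4 arrays, and 415 and 311 with the intensity trend. Without a filter limma made 0 calls in either direction, with 3165 genes at an unadjusted p under 0.05. With an array left out, a group held 1 array, assumed to vary like the other group, so lost calls there say little about stability; calls ran from 0 to 69 higher and from 0 to 52 lower; both counts were 0 without DMSO replicate 1 (2113 at an unadjusted p under 0.05) and without DMSO replicate 2 (2015). The cause of these changes was not tested.

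The replicate numbers were shared but not shown to pair samples: deviations of same-numbered samples correlated at 0.138. With the replicate block, 74 genes were called higher and 69 lower, 0 of them members, whose lowest adjusted p was 0.273. Sesn2 lost its call under the block (limma adjusted p = 0.0539), quantile (0.0546), cyclic loess (0.0542), no filter (0.215) and each array left out (0.0983 to 0.255). Of 575 comparisons of a result with an alternative for single genes, 551 stayed on the same side of the threshold, mostly as genes not called in either fit, 16 gained a call, 8 lost it and 0 changed sign while called. Among the 26 named members, Rpl27a, Rps27a and Rpl21 alone kept their sign throughout these alternatives. With 2 arrays per group, differences of the size seen in the ribosomal protein genes are below what limma could call.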
